A study of Mus musculus with 6 samples.

Results

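Macrophage transcripts were followed in regulatory T cells and their descendants that had been sorted from lymphopenic mice. The set held 33 genes known from macrophages, with neutrophil granule and MHC class II genes left out, and all 33 had a probe set among the 18193 annotated genes of the array. Where a gene had several annotated probe sets, the one with the highest mean was read. The set is named for its genes and not for the sorted cells, which the protocol describes as CD4+ populations, CD4 being a surface protein of helper T cells.

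Macrophages are resident phagocytes that clear dying cells, microbes and old red cells. They need signals through the receptor Csf1r, take up cargo with scavenger, Fc and phosphatidylserine receptors, and digest it in lysosomes. In the spleen, red pulp macrophages recycle iron from red cells under the transcription factor Spic, while marginal zone macrophages carry Marco or Siglec1. Macrophages also make complement C1q, which tags debris for uptake.

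All 3 populations came from the same BALB/c Rag1-/- hosts, mice without T or B cells of their own but with their own myeloid cells. By the protocol, hosts were mice with colitis, and they received wild-type natural regulatory T cells (nTreg) together with 500000 wild-type regulatory T cells induced in culture (iTreg). Donor cells carried the Foxp3EGFP reporter, in which EGFP reports Foxp3, the master regulator of this T cell lineage, and Thy1.1 marked cells of iTreg origin. At day 125, spleen and mesenteric lymph node cells of 14 mice were pooled and sorted. nTreg cells were EGFP+ Thy1.1-, iTreg cells were EGFP+ Thy1.1+, and ex-iTreg cells were EGFP- Thy1.1+, that is, cells of induced origin without reporter signal. Host age is not given in the labels.

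Each population was measured on 2 Affymetrix Mouse430_2 arrays, called pool 1 and pool 2. Whether both pools came from different animals is not stated in the labels, so the p-values reflect pool-to-pool spread alone, possibly a technical one. Values are the deposited log2 expression values, and 1 unit is a 2-fold difference. Array medians lay between 5.47 and 5.49, and a reading under 5.48, the median of all values, is treated here as near background. The labels give a mean sort purity of 98.96% ± 0.14 over 120 sorts, and give none for these pools. The 10 measured T cell identity genes of 15 listed, Cd3d and Cd3g among them, had a mean log2 level between 11.57 and 11.65 in every array. The level mean held single genes that moved in opposite directions. In ex-iTreg minus nTreg 2 of the 10 were higher and 3 lower (adjusted p under 0.05, limma), against 8.75% and 9.86% of all genes. In ex-iTreg minus iTreg 2 were higher and 2 lower, against 7.26% and 10.0% of all genes. Foxp3 read between 3.99 and 4.29 in all arrays, near background, so its probe set could not check the reporter labels. Il2ra, the alpha chain of the IL-2 receptor, had means of 10.02 in nTreg, 9.95 in iTreg and 6.77 in ex-iTreg arrays.

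**Figure D1:**
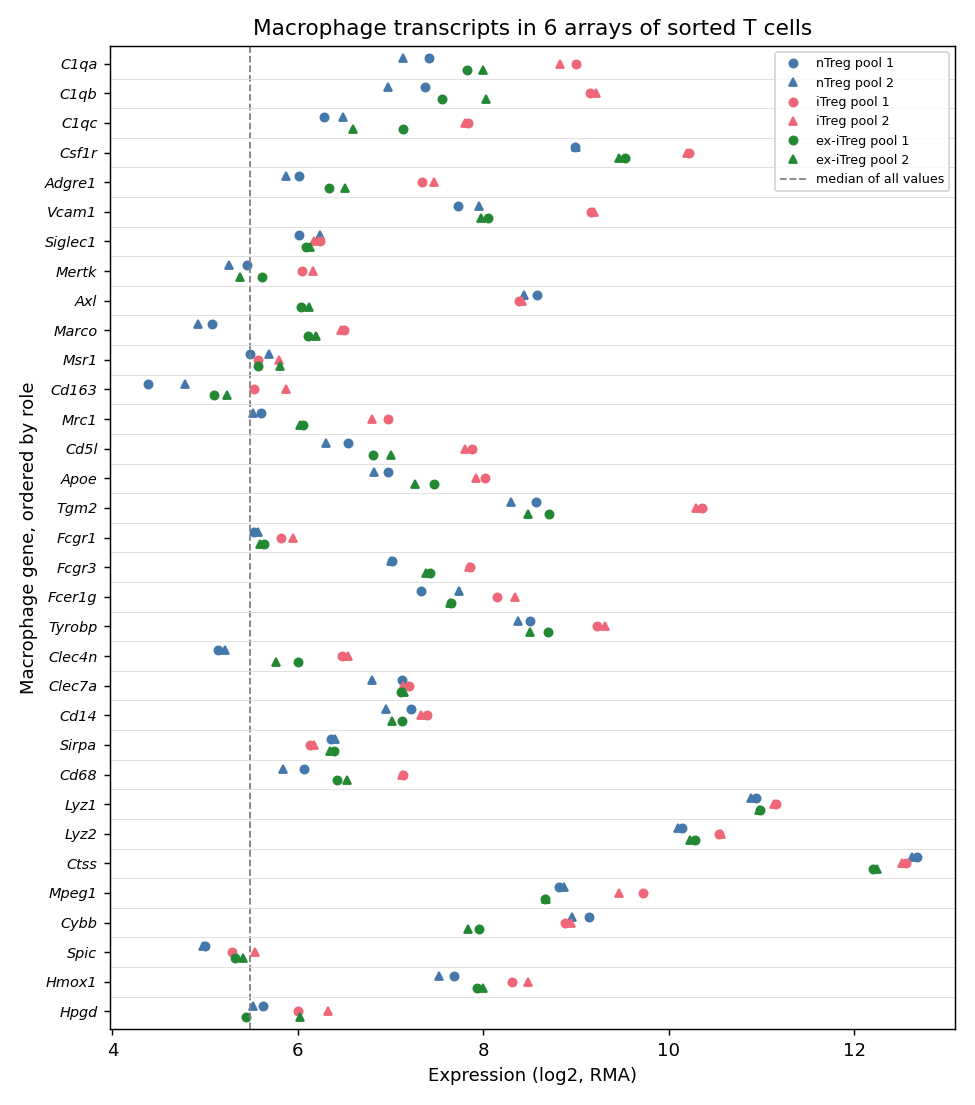
Log2 expression (x axis) of the 33 macrophage genes (y axis, ordered by role) in the 6 arrays; circles are pool 1, triangles pool 2, and the dashed line is the median of all values, 5.48. In 24 genes both iTreg points lie to the right of the other 4, while in Axl, Ctss, Mpeg1 and Cybb both ex-iTreg points lie to the left of the other 4; positions of different genes come from different probes and are not comparable.

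Most macrophage transcripts were highest in iTreg arrays. Fewer, 13 of the 33, were also called higher in ex-iTreg than in nTreg arrays, against 8.75% of all genes. The median of that difference over the 33 genes was 0.17 log2 units. In iTreg minus nTreg, 23 of 33 genes were higher, 0 were lower and 10 did not pass the test (adjusted p under 0.05, limma with Benjamini-Hochberg adjustment). Of all genes, 6.6% were called higher and 5.66% lower in that comparison, a balance that turned to 5.38% and 6.33% when arrays were set to equal T cell identity levels. The median difference of the macrophage genes was 0.79 log2 units, against 0.03 for all genes. In ex-iTreg minus iTreg, 23 genes were lower and 0 higher, with a median of -0.60, and 20 of the 23 were among those higher in iTreg than in nTreg arrays. These comparisons share the iTreg arrays, so the overlap of their calls is not independent. Of all genes, 10.0% were called lower and 7.26% higher in ex-iTreg minus iTreg, which turned to 8.1% and 9.29% with the same scaling. Bulk arrays cannot tell fewer cells of a type from less RNA per cell.

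The same was visible array by array. Both iTreg arrays lay above the other 4 in 24 of the 33 genes, a pattern shown by 16.3% of all genes. Both lay above both nTreg arrays in 27 of the 33, against 31.9% of all genes. The full order, with nTreg below ex-iTreg below iTreg and no overlap, was found in 18 of the 33 and in 4.51% of all genes. Those 18 included the C1q chains, Csf1r, Adgre1, Marco, Mrc1, Cd5l, Apoe and Hmox1. Axl, Ctss, Mpeg1 and Cybb, 4 of the 33, had both ex-iTreg arrays below the other 4, a share near and not above the 16.8% of all genes.

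**Figure D2:**
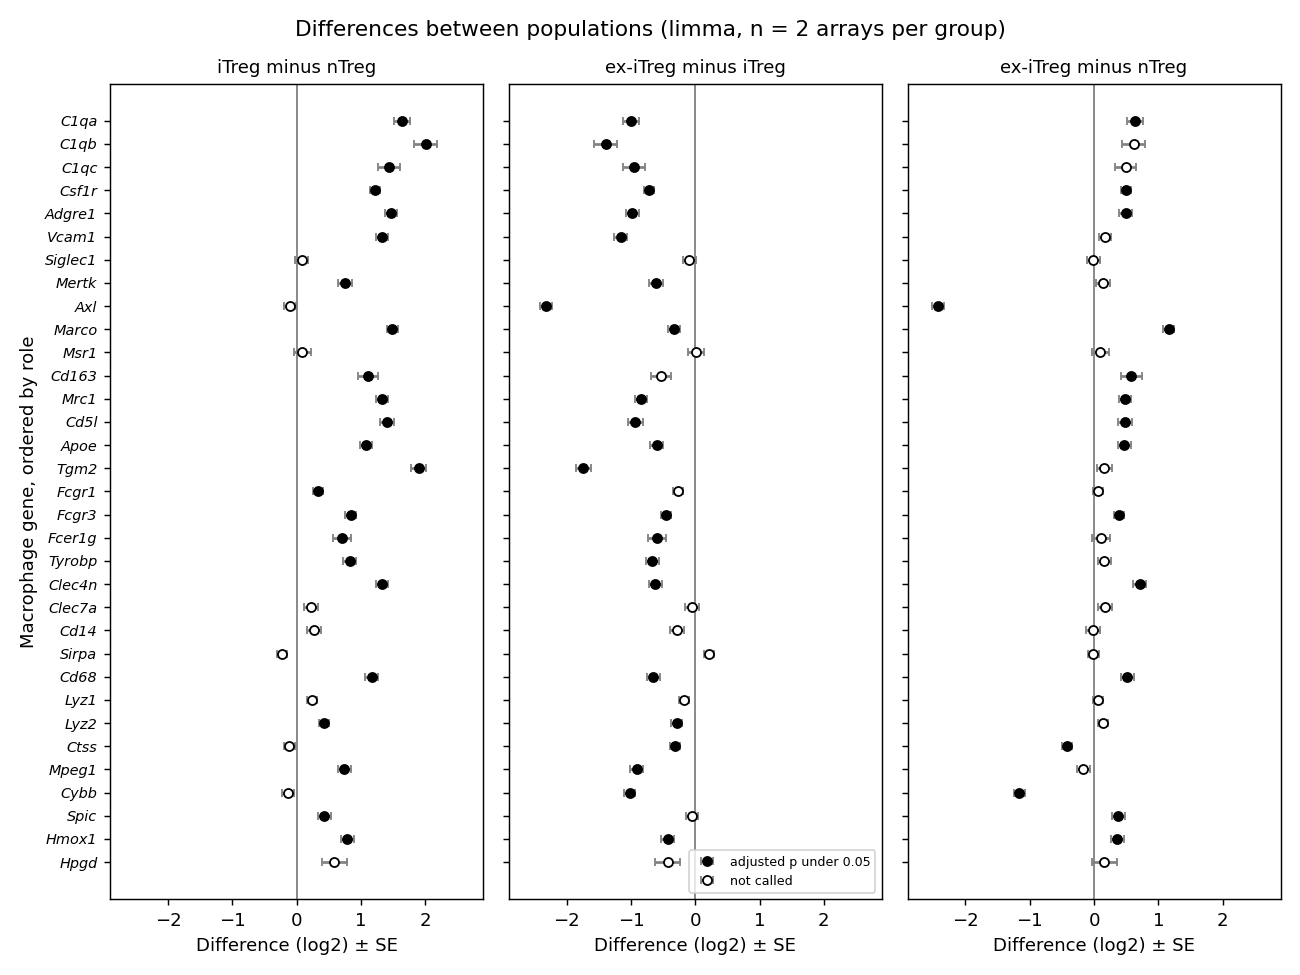
Differences in log2 expression (x axis) ± standard error for the 33 genes (y axis) in the 3 comparisons; filled points passed limma's test at an adjusted p of 0.05, with n = 2 arrays per group. In iTreg minus nTreg 23 points are filled to the right of 0, in ex-iTreg minus iTreg 23 to the left, and in ex-iTreg minus nTreg 13 to the right and 3 to the left.

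The 3 chains of C1q, the complement component that recognises immune complexes and cell debris, moved together. C1qa read 7.42 and 7.14 in nTreg, 9.0 and 8.83 in iTreg and 7.83 and 8.0 in ex-iTreg arrays. C1qb read 7.37 and 6.97, then 9.15 and 9.22, then 7.56 and 8.03 in the same order. C1qc read 6.28 and 6.49, then 7.84 and 7.80, then 7.14 and 6.60. In each chain the 3 groups did not overlap. iTreg exceeded nTreg arrays by 1.64 ± 0.12 (SE) for C1qa, 2.01 ± 0.18 for C1qb and 1.44 ± 0.17 for C1qc, which are folds of 3.12, 4.04 and 2.71 (adjusted p = 0.000388, 0.000797 and 0.00261, limma). ex-iTreg arrays were lower than iTreg arrays (differences of -1.0, -1.39 and -0.95), and omitting iTreg pool 1 took C1qc past the threshold (adjusted p = 0.0541, limma). The 2 other C1qb probe sets were also higher in iTreg than in nTreg arrays and lower in ex-iTreg than in iTreg arrays.

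The C1q genes lie side by side, and the RefSeq table (GRCm38.p6) held promoters, 250 bases before to 50 after the annotated start, for C1qb and C1qc. They are shown because these chains moved together, and were searched for GAGGAAGT, a motif of the macrophage and B cell factor PU.1, on both strands (ACTTCCTC on the other). Ctss, encoding the lysosomal protease cathepsin S, is shown as the other macrophage gene whose promoter held the motif. Capitals mark it.
C1qb, chr4:136886151-136886450, minus strand: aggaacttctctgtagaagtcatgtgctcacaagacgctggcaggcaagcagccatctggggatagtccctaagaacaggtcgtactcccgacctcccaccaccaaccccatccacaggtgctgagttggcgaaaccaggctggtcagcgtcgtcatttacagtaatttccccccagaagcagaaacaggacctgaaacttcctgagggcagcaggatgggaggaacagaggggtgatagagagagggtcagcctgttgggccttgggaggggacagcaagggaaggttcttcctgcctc
C1qc, chr4:136892865-136893164, minus strand: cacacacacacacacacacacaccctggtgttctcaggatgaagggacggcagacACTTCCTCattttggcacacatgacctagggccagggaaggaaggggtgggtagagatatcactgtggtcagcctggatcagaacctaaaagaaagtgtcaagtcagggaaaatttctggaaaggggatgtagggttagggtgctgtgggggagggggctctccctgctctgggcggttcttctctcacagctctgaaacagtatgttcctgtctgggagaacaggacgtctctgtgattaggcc
Ctss, chr3:95526536-95526835, plus strand: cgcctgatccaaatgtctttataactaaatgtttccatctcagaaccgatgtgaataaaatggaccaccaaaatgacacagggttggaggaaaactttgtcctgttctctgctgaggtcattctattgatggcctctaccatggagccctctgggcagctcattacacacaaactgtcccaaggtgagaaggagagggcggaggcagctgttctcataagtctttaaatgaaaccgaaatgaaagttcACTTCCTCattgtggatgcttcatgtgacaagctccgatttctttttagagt
The motif began 195 bases before the C1qc start and 2 bases before the Ctss start, both on the opposite strand, and these letters were not in the C1qb window. Promoters were matched for 21 of the 33 genes, 25 promoters in all, of which 2 held the motif (8.0%), against 3.2% of all 32851 promoters. Any link between the motif and expression was not tested.

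Among surface genes that identify macrophages, 3 of 4 were higher in iTreg than in nTreg arrays. Csf1r, the receptor for the growth factors Csf1 and Il34, read 8.99 and 9.0 in nTreg, 10.22 and 10.20 in iTreg and 9.53 and 9.46 in ex-iTreg arrays. It was 1.22 ± 0.08 higher in iTreg than nTreg arrays (adjusted p = 0.000207, limma) and 0.50 ± 0.08 higher in ex-iTreg than nTreg arrays (adjusted p = 0.00456, limma). The other Csf1r probe sets were also called higher in iTreg than nTreg arrays. Their ex-iTreg minus nTreg differences of 0.22 and 0.40 were not called (adjusted p = 0.121 and 0.0733, limma). Adgre1, an adhesion receptor widely used to mark mouse macrophages, read 6.01 and 5.87, then 7.34 and 7.47, then 6.34 and 6.51. Its groups were fully separate, with a fold of 2.77 in iTreg over nTreg arrays. Vcam1, an adhesion molecule that binds the integrin of Itga4 and Itgb1, read 7.73 and 7.96, then 9.16 and 9.19, then 8.05 and 7.98. Unlike Csf1r on the probe set used, Vcam1 in ex-iTreg arrays was not called against nTreg (0.17 ± 0.10, adjusted p = 0.325, limma). The genes themselves were not compared. Siglec1, the sialic acid receptor CD169, read between 6.01 and 6.24 in all 6 arrays with overlapping groups, and was not called in any comparison on this probe set.

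Receptors and carriers for dying cells and lipid gave the widest range. Tgm2, a transglutaminase that takes part in uptake of dying cells, read 8.57 and 8.30 in nTreg, 10.36 and 10.30 in iTreg and 8.71 and 8.48 in ex-iTreg arrays. It was 3.72-fold higher in iTreg than in nTreg arrays (adjusted p = 0.000207, limma), and ex-iTreg overlapped nTreg arrays. Cd5l, a secreted protein of tissue macrophages, read 6.54 and 6.31, then 7.88 and 7.80, then 6.81 and 7.01. Mrc1, the mannose receptor, read 5.60 and 5.52, then 6.97 and 6.80, then 6.06 and 6.02. Apoe is an apolipoprotein made by macrophages, and Mertk a receptor for phosphatidylserine bridged by Gas6 or Pros1. Both were higher in iTreg than in nTreg arrays, Apoe by 1.08 ± 0.10 and Mertk, from an nTreg mean near background, by 0.75 ± 0.11. Their lower values in ex-iTreg than iTreg arrays were not called without ex-iTreg pool 2, nor without iTreg pool 1 for Apoe or iTreg pool 2 for Mertk (adjusted p = 0.054 to 0.0786, limma). Cd163, the haemoglobin scavenger receptor, was higher by 1.11 ± 0.16, but its nTreg mean of 4.59 and ex-iTreg mean of 5.17 were near background. Msr1, a class A scavenger receptor, read between 5.49 and 5.81 in all arrays and was not called in any comparison.

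Marco, another class A scavenger receptor, stayed high in ex-iTreg arrays. It read 5.07 and 4.92 in nTreg, 6.50 and 6.47 in iTreg and 6.11 and 6.20 in ex-iTreg arrays, with no overlap. ex-iTreg exceeded nTreg arrays by 1.16 ± 0.09 (adjusted p = 0.000151, limma), the highest value of the 33 genes in that comparison, although the nTreg mean lay near background. The lower value in ex-iTreg than iTreg arrays (-0.33 ± 0.09, adjusted p = 0.0455, limma) was not called without any one of the iTreg or ex-iTreg arrays (adjusted p = 0.124 to 0.232, limma). The other Marco probe set, under 5.48 in all arrays, was called the other way there, at 0.32.

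Axl, a receptor of the same kinase family as Mertk, did not follow it. Axl read 8.58 and 8.44 in nTreg, 8.39 and 8.42 in iTreg and 6.04 and 6.12 in ex-iTreg arrays. nTreg and iTreg did not pass the test between them (-0.10 ± 0.09, adjusted p = 0.528, limma), while ex-iTreg arrays were 5.00-fold below iTreg (adjusted p = 1.05e-05, limma) and 5.38-fold below nTreg (adjusted p = 3.98e-06, limma). Cybb, the catalytic subunit of the phagocyte NADPH oxidase, had the same order of groups. It read 9.14 and 8.96, then 8.88 and 8.95, then 7.95 and 7.84, and was 2.03-fold lower in ex-iTreg than in iTreg arrays (adjusted p = 0.000572, limma). Both other Cybb probe sets were also lower there, by -0.88 and -1.05 in log2 units. Ctss read 12.68 and 12.63, then 12.56 and 12.52, then 12.21 and 12.25. Its difference of -0.31 in ex-iTreg minus iTreg was called (adjusted p = 0.0363, limma), but not without any one of those 4 arrays (adjusted p = 0.112 to 0.184, limma). Its call against nTreg was lost without either ex-iTreg array (adjusted p = 0.0803 without pool 1 and 0.0589 without pool 2, limma). Values of the other Axl probe set, 2.88 to 3.05, were near background.

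**Figure D3:**
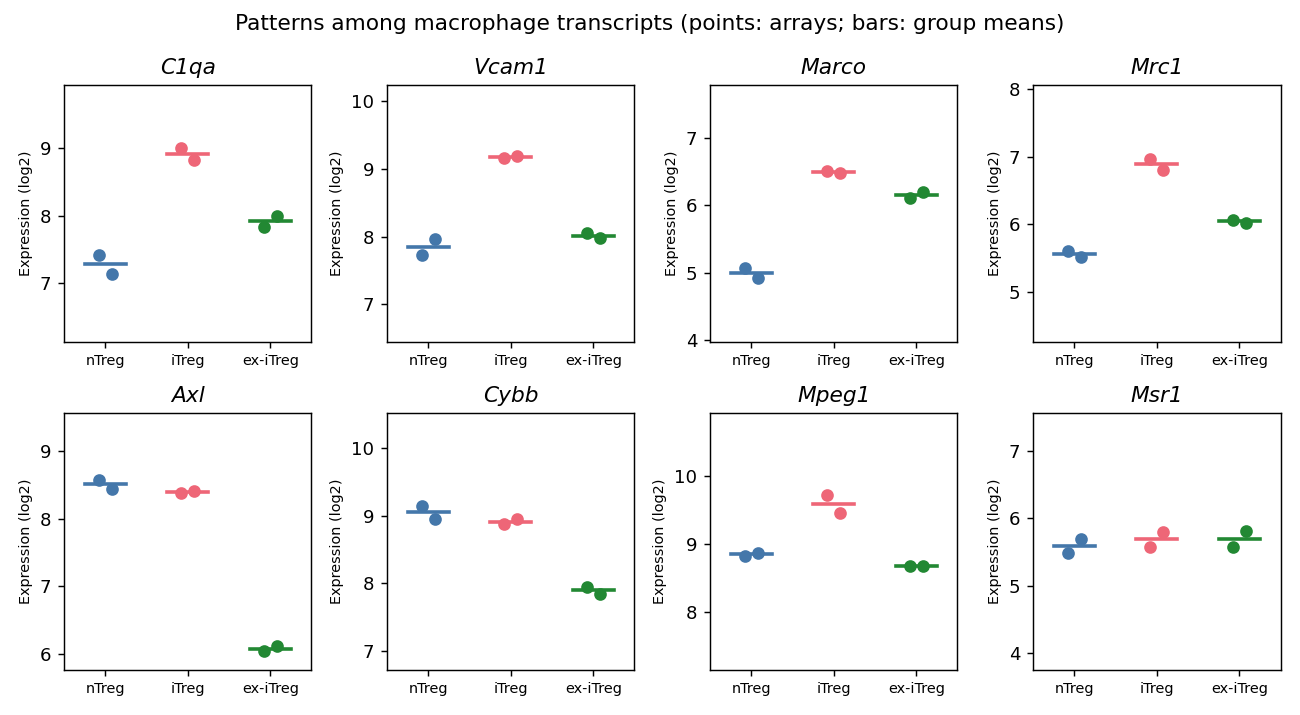
Log2 expression (y axis, the same span in every panel) of 8 macrophage genes by population; points are arrays and bars group means (n = 2). C1qa, Mrc1 and Marco have ex-iTreg arrays between the other groups, Vcam1 has them near nTreg, Axl and Cybb are low in ex-iTreg arrays, Mpeg1 is high in iTreg arrays, and the groups of Msr1 overlap.

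Activating Fc receptors and the adaptors through which they and related receptors signal were called in smaller amounts. Fcgr3, a low-affinity IgG receptor, read 7.02 and 7.01 in nTreg, 7.86 and 7.85 in iTreg and 7.43 and 7.38 in ex-iTreg arrays. Its fold in iTreg over nTreg arrays was 1.79 (adjusted p = 0.000915, limma), and its lower value in ex-iTreg than iTreg arrays was not called without ex-iTreg pool 2 (adjusted p = 0.0722, limma). Tyrobp, the adaptor DAP12, read 8.51 and 8.38, then 9.23 and 9.31, then 8.70 and 8.51, and so was high in iTreg arrays alone. Fcer1g, the common Fc receptor gamma chain, was higher in iTreg than nTreg arrays by 0.71 ± 0.14, a call lost without nTreg pool 1 or either iTreg array (adjusted p = 0.0521 to 0.113, limma). Its lower value in ex-iTreg arrays was lost without any one of the 4 arrays compared (adjusted p = 0.0606 to 0.139, limma). Fcgr1, the high-affinity IgG receptor, differed by 0.33 ± 0.08 in iTreg minus nTreg, and this call was lost without any single array (adjusted p = 0.0825 to 0.218, limma).

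Pattern recognition receptors were mostly not called. Clec4n, the C-type lectin Dectin-2, read 5.14 and 5.21 in nTreg, 6.48 and 6.54 in iTreg and 6.00 and 5.77 in ex-iTreg arrays. It was higher in iTreg than in nTreg arrays by 1.33 ± 0.10 and in ex-iTreg than in nTreg arrays by 0.71 ± 0.10 (adjusted p = 0.000392 and 0.00273, limma), from an nTreg mean near background. Its relative Clec7a, the lectin Dectin-1, differed by 0.22 ± 0.11 in iTreg minus nTreg (adjusted p = 0.30, limma). Cd14, the lipopolysaccharide coreceptor, differed by 0.27 ± 0.11 (adjusted p = 0.177, limma), with both iTreg arrays above the other 4. Sirpa, the inhibitory receptor that binds Cd47, differed by -0.23 ± 0.08 on the probe set used (adjusted p = 0.115, limma). A second Sirpa probe set was called higher in iTreg than nTreg arrays at 0.79, so the direction of Sirpa depends on the probe set.

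Among lysosomal and killing genes, Cd68, a lysosomal membrane glycoprotein, read 6.07 and 5.84 in nTreg, 7.13 and 7.12 in iTreg and 6.42 and 6.53 in ex-iTreg arrays. It was 2.25-fold higher in iTreg than in nTreg arrays (adjusted p = 0.00068, limma). Mpeg1, the pore-forming protein perforin-2, read 8.82 and 8.87, then 9.72 and 9.46, then 8.67 and 8.68. It was thus high in iTreg arrays, with ex-iTreg arrays 0.91 log2 units under iTreg (a difference of -0.91 ± 0.10) and not called against nTreg (-0.17 ± 0.10, adjusted p = 0.333, limma). Lyz1 and Lyz2 encode near-identical lysozymes, and the Lyz1 probe set is of a class that may bind other transcripts. Their readings may therefore not be separate. A Lyz1 probe set outside that class read 3.51 to 3.99, near background in all arrays. The probe sets used for C1qb, Tgm2 and Spic are of the same class. For C1qb and Tgm2, probe sets outside it were also called higher in iTreg than nTreg arrays. Lyz2 was higher by 0.43 ± 0.08 and Lyz1 differed by 0.24 ± 0.08 in iTreg minus nTreg (adjusted p = 0.0144 and 0.105, limma). The Lyz2 call was lost without nTreg pool 2 or either iTreg array (adjusted p = 0.061 to 0.0807, limma), and its call in ex-iTreg minus iTreg without any single array (adjusted p = 0.0557 to 0.232, limma).

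Of the iron, haem and prostaglandin genes, Hmox1, which breaks down haem, read 7.68 and 7.52 in nTreg, 8.31 and 8.48 in iTreg and 7.93 and 8.0 in ex-iTreg arrays. It was 1.73-fold higher in iTreg than in nTreg arrays (adjusted p = 0.00309, limma). Its lower value in ex-iTreg than iTreg arrays (-0.43 ± 0.10) was lost without iTreg pool 2 or either ex-iTreg array (adjusted p = 0.103 to 0.144, limma). Spic, the factor of red pulp macrophages, had means under 5.48 in every group and was the 1 macrophage gene that would not pass a filter on low values. Its readings of 5.00 and 4.98, then 5.29 and 5.54, then 5.32 and 5.41 were called in iTreg minus nTreg (0.43 ± 0.10, adjusted p = 0.0392, limma), but this compares values near background. The call was lost without any one array except iTreg pool 1 (adjusted p = 0.0762 to 0.177, limma). Hpgd, which degrades prostaglandins, differed by 0.59 ± 0.19, read 5.44 and 6.02 in the ex-iTreg arrays, and was not called (adjusted p = 0.0963, limma).

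In ex-iTreg minus nTreg, 13 of the 33 genes were higher, 3, Axl, Cybb and Ctss, were lower and 17 did not pass the test, with 8.75% of all genes called higher and 9.86% lower (9.49% and 9.26% with that scaling to T cell identity levels). The median difference was 0.17. The higher genes were C1qa, Csf1r, Adgre1, Marco, Cd163, Mrc1, Cd5l, Apoe, Fcgr3, Clec4n, Cd68, Spic and Hmox1, and all 13 were also higher in iTreg than in nTreg arrays, a comparison that shares the nTreg arrays. Differences of the 13 ran from 0.36 for Hmox1 to 1.16 for Marco. The count rested on single arrays, as 4 were higher without nTreg pool 2, 7 without ex-iTreg pool 1 and 5 without ex-iTreg pool 2. Csf1r, Marco and Clec4n, and the lower Axl and Cybb, kept their calls without each of the 6 arrays in turn. Adjusted p-values for the other 11 genes reached at most 0.0826 (Mrc1) to 0.217 (Cd163 and Spic) for the genes called higher, and 0.0803 for Ctss, when an array was left out (limma).

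Further macrophage genes, none of them in the set of 33, were taken from a list of 52, of which 48 were measured. In iTreg minus nTreg 13 of the 48 (27.1%) were higher and 3 (6.25%) lower, with a median of 0.15. Of all genes, 6.6% were called higher and 5.66% lower there, so the lower share was near that of all genes. Slc40a1, the iron exporter ferroportin, read 7.56 and 7.48 in nTreg, 8.90 and 8.97 in iTreg and 8.11 and 8.10 in ex-iTreg arrays, the order seen for C1qa. Aif1, a calcium-binding protein of macrophages, was higher in iTreg than nTreg arrays by 1.33 ± 0.11, Treml4, a receptor of red pulp macrophages, by 1.25 and Lyve1, a hyaluronan receptor, by 1.08. The nTreg mean of Treml4 and all 3 Lyve1 means were near background. Cebpa, Pparg and Fcgr2b were the lower ones, at -0.50, -0.36 and -0.35, with Pparg near background throughout. Spi1, which encodes PU.1, read between 6.23 and 6.47 and was not called in any comparison, and Timd4, a phosphatidylserine receptor, was near background in its 3 means.

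In ex-iTreg minus iTreg, 20 of these 48 (41.7%) were lower and 0 higher, against 10.0% and 7.26% of all genes. The median of the 48 was -0.33. The largest differences were in Ctsl (-2.62 ± 0.10), Lgmn (-2.38), Irf8 (-1.56) and Tlr7 (-1.49), the ex-iTreg mean of Tlr7, 4.84, being near background. Ctsl and Lgmn encode the lysosomal proteases cathepsin L and legumain, Irf8 a transcription factor of myeloid and B cells and Tlr7 a receptor for single-stranded RNA. Lgmn, Irf8 and Tlr7 were not called between iTreg and nTreg arrays, like Axl and Cybb. Lgmn read 9.26 and 9.10 in nTreg, 8.90 and 8.88 in iTreg and 6.57 and 6.44 in ex-iTreg arrays. Ctsl was higher in iTreg than nTreg arrays by 1.01, and lower in ex-iTreg than nTreg arrays at -1.61. In ex-iTreg minus nTreg, 7 of the 48 (14.6%) were higher and 16 (33.3%) lower, with a median of -0.13. Of all genes, 8.75% were called higher and 9.86% lower. In the set of 33, 13 were higher and 3 lower. The difference between the 48 and the 33 genes was not tested.

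Ligands for these receptors, and cytokines that act on macrophages, were read from a list of 15 genes. Of these 3 were higher and 1 lower in iTreg minus nTreg (20.0% and 6.67%, against 6.6% and 5.66% of all genes). The lower share was near that of all genes. In ex-iTreg minus iTreg 4 were higher and 3 lower (26.7% and 20.0%, against 7.26% and 10.0% of all genes). Csf1, the main ligand of Csf1r, read 8.67 and 8.62 in nTreg, 9.57 and 9.51 in iTreg and 6.38 and 6.38 in ex-iTreg arrays. It was higher in iTreg than nTreg arrays by 0.89 ± 0.08 (adjusted p = 0.000754, limma) and 8.94-fold lower in ex-iTreg than in iTreg arrays (adjusted p = 3.07e-06, limma). On the probe sets used, ex-iTreg thus lay below nTreg arrays for the ligand and above them for the receptor. For the receptor that difference was not called on its other probe sets. Il34, the other ligand, and Gas6 were near background in all arrays. Pros1, a ligand of Mertk and Axl's family, was higher in iTreg than nTreg arrays by 0.56 and lower in ex-iTreg than iTreg arrays at -0.73. Cd47, Spn, a sialylated ligand of Siglec1, and Itga4 were not called in any comparison, while Itgb1 was higher in ex-iTreg than iTreg arrays by 0.80.

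Of the cytokines in that list that act on macrophages, Ifng, an activator, was higher in iTreg than nTreg arrays by 0.61 and in ex-iTreg than iTreg arrays by 1.31. Il10, an inhibitor, was lower at -0.94 and -2.33. Csf2 and Il4 were higher in ex-iTreg than iTreg arrays by 0.69 and 0.91, with iTreg means near background and, for Il4, the ex-iTreg mean too. Il13 and Ccl2 were near background in all arrays, and Cx3cl1 was not called in any comparison.

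Markers of other blood and tissue cells were read beside the macrophage genes. The mean log2 level of the 33 macrophage genes was 7.17 and 7.12 in nTreg, 7.94 and 7.97 in iTreg and 7.31 and 7.32 in ex-iTreg arrays, and their summed linear signal ranged from 13982 to 14579, 18929 to 19193 and 13074 to 13108. The 6 measured MHC class II genes of 7 listed were also highest in iTreg arrays, with means of 8.23, 8.74 and 8.10 and summed signals of 2619 to 2727, 3793 to 3938 and 2292 to 2451. For 10 neutrophil genes of 12 the means were 7.76, 8.16 and 7.61 and the sums 8054 to 8171, 9705 to 10428 and 6616 to 6704. For 7 erythroid genes of 12 the means were 6.17, 6.39 and 6.05 and the sums 735 to 740, 929 to 1007 and 635 to 651. In these 3 lists the ex-iTreg mean lay below nTreg. The 33 macrophage genes had a higher mean log2 level but a lower summed signal in ex-iTreg than in nTreg arrays. The sum weighs high readings most, and Ctss, the highest of the 33, had means of 12.65 in nTreg and 12.23 in ex-iTreg arrays. A sum without Ctss was not taken, and the lower sum is not read here as a statement on the 33 genes in general. The 48 further macrophage genes had means of 7.02, 7.23 and 6.79, and so also lay lowest in ex-iTreg arrays. In iTreg minus nTreg 3 of 6, 3 of 10 and 2 of 7 genes of the MHC class II, neutrophil and erythroid lists were higher. In that comparison 0 were lower, and the shares among all genes were 6.6% higher and 5.66% lower. In ex-iTreg minus iTreg 5 of 6, 7 of 10 and 3 of 7 were lower. The 1 gene called higher there was the haemoglobin gene Hba-a2, with all means near background. The lower shares were 83.3%, 70.0% and 42.9%, against 69.7% of the 33 macrophage genes and 10.0% of all genes. Higher calls made up 7.26% of all genes in that comparison. Named after their values were seen, the genes higher in iTreg than nTreg arrays were Cd74, H2-Aa and H2-DMa, then Camp, Lcn2 and Mpo, then Klf1 and Slc4a1.

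Other lists had smaller differences or another order. The means of 11 dendritic cell genes were 5.57, 5.66 and 5.64, and 5 of them, with Xcr1 and Zbtb46 among these, read under 5.48 in all arrays. Of 10 stromal and endothelial genes 8 read under 5.48 in all arrays. The 6 monocyte genes had means of 6.75, 6.71 and 6.33. In ex-iTreg minus iTreg 3 of the 6 were lower and 0 higher, against 10.0% and 7.26% of all genes. The lower ones were Ccr2, a receptor also made by T cells (-0.96), Chil3 (-0.79) and F13a1 (-0.41). The ex-iTreg mean of F13a1, 5.27, was near background, as were Vcan and Cx3cr1 in all arrays. In iTreg minus nTreg 0 of the 6 were called. The 9 B cell genes had means of 6.42, 6.22 and 5.83, and the 8 CD8 T and NK cell genes 5.46, 5.56 and 6.68. The 12 poly-A control probe sets, which read RNA added before labelling, averaged 10.73 in nTreg, 12.19 in iTreg and 9.34 in ex-iTreg arrays. The part of these other cells or of the control RNA level in the macrophage readings was not tested.

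**Figure D4:**
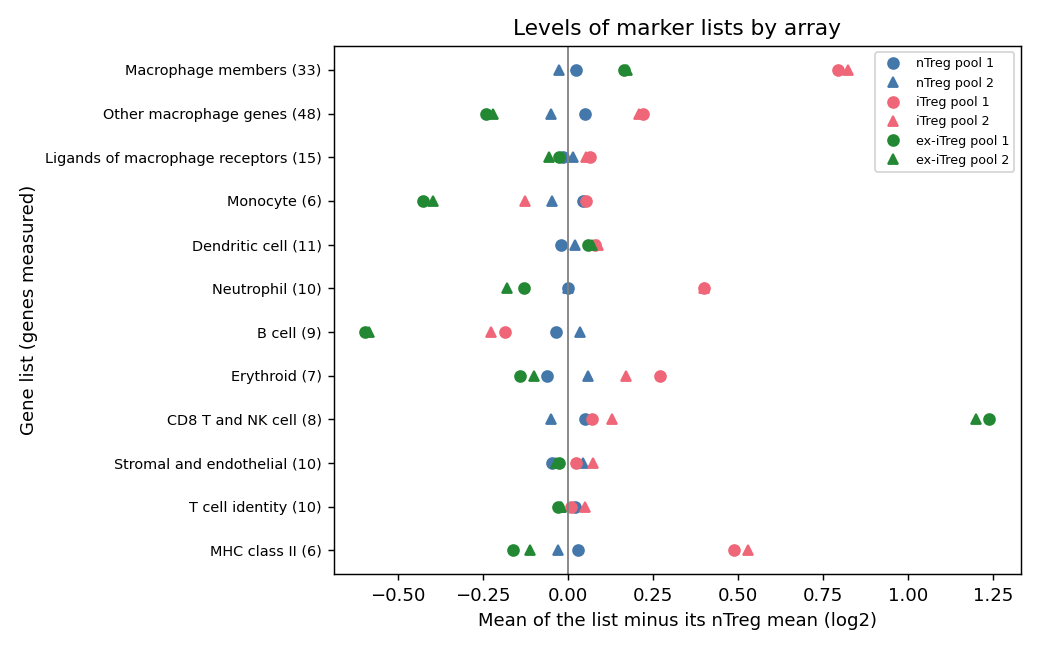
Mean log2 level of each gene list minus its mean in the nTreg arrays (x axis) for every array; the number of genes measured stands beside each list name. The macrophage, further macrophage, MHC class II, neutrophil and erythroid lists have both iTreg arrays to the right of the others. So, by small margins, do the ligand and dendritic cell lists. The T cell identity list stays close to 0 (11.57 to 11.65 on the log2 scale), and the CD8 T and NK cell list is high in ex-iTreg arrays.

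Other probe sets of the 33 genes gave a view that the choice of probe set did not fix. There were 28 of them in 15 genes, and 11 read under 5.48 in all arrays. In iTreg minus nTreg 14 of the 28 were called higher and 0 lower, and in ex-iTreg minus iTreg 12 were called lower and 1, the Marco probe set named above, higher. In ex-iTreg minus nTreg 4 were higher and 2, both of Cybb, lower. They read the same RNA as the probe sets used and so are not further replicates.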

How the data were processed

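Expression was measured on 6 Affymetrix Mouse430_2 arrays, 2 pools each of nTreg, iTreg and ex-iTreg cells. The deposited values are on the log2 scale, and the submitters' processing notes name RMA; its version is not given in the sources used here. Of 45101 probe sets, 64 controls were left out, and limma 3.58.1 (R 4.3.3) was fitted to the other 45037 with 1 mean per group, no filter on low values and Benjamini-Hochberg adjustment over all of them; a call is an adjusted p under 0.05. The fit had 3 residual degrees of freedom, and an exact test of 2 arrays against 2 cannot go below a p of 0.33. Of the probe sets, 34945 carried 1 gene symbol, 932 several and 9160 none. A gene was its probe set with 1 symbol and the highest mean, giving 18193 genes. The number of arrays limits the precision.

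The macrophage genes, the lists and the tests were chosen with earlier results of these data known. All 33 genes, all 15 ligands, Spi1, Slc40a1 and Timd4, and the 4 largest called differences per direction among further macrophage genes were to be named. Foxp3, Il2ra and the Ctss promoter were added after values were seen. The fit was tested on simulated data. Alternatives were renormalization, scaling to T cell genes, a low-value filter, an intensity trend, 2-group fits, a replicate block, all probe sets of a gene and leaving out each array. Comparisons with conventional T cells were not analysed here.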

Additional observations from a re-analysis of the deposited data

How the results depend on the processing

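No direction of a called macrophage gene reversed; of 1284 gene values over all alternatives, 93 lost and 29 gained a call. Leaving out 1 array gave 19 to 22 higher and 0 lower genes in iTreg minus nTreg (median 0.77 to 0.85), 0 higher and 16 to 23 lower in ex-iTreg minus iTreg (median -0.65 to -0.56), and 4 to 13 higher and 2 to 3 lower in ex-iTreg minus nTreg (median 0.17 to 0.30). A lone array was then assumed to vary like the other groups. Calls kept in all 6 omissions numbered 19 of 23, 14 of 23 and 5 of 16. The median was 0.76 in iTreg minus nTreg and -0.55 in ex-iTreg minus iTreg with arrays scaled to T cell genes, -0.57 in the latter after renormalization, and 0.76 in the former with all probe sets of a gene averaged. With the low-value filter, Sirpa made 1 lower gene in iTreg minus nTreg and 1 higher in ex-iTreg minus iTreg, and with an intensity trend Ctss made 1 lower in the former; the cause was not tested. Of all genes, the filter, which tested 23505 probe sets, called 16.4% higher and 12.6% lower in iTreg minus nTreg, 15.6% and 21.0% in ex-iTreg minus iTreg, and 18.4% and 19.0% in ex-iTreg minus nTreg. The intensity trend called 12.0% and 9.84% in the first comparison and fits of only the 2 groups compared 3.94% and 4.01%. Leaving out 1 array called 2.19% to 4.05% higher and 2.83% to 4.13% lower in the first, 2.84% to 7.14% and 4.53% to 10.0% in the second, and 4.31% to 7.59% and 6.01% to 9.04% in the third. Same-numbered pools did not deviate together (correlations 0.021, -0.083 and -0.018), so the numbers were not taken as pairs. The replicate block gave 22 higher and 0 lower, 0 higher and 21 lower, and 11 higher and 3 lower genes in the 3 comparisons. Group means under the median of all values limit Spic, Cd163, Marco, Mertk and Clec4n. The nTreg means of Mrc1, Fcgr1, Msr1 and Hpgd, from 5.55 to 5.59, lay just above that median and limit these genes too.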
